A study of Mus musculus with 6 samples.

Results

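Caveolae are small flask-shaped pits of the plasma membrane, and this account covers 9 genes that build them, shape the transverse tubules (T-tubules) of muscle fibers, or seal torn membrane. The genes were *Cav1*, *Cav2*, *Cav3*, *Cavin1*, *Cavin2*, *Cavin3*, *Cavin4*, *Trim72* and *Bin1*. They were chosen by name, with earlier results of these data known. Each was found by its Ensembl ID among the 56262 genes of the count table, so all 9 are accounted for. RNA-seq counts were examined in leg muscle of mouse fetuses at embryonic day 18.5, from 3 WT and 3 *SYISL* KO samples. *SYISL* is a long noncoding RNA from within the *Synpo2* gene, and the study asked how its loss affects fetal muscle. No other allele, agent or treatment is named for these samples. Parents of each mating shared a genotype, so the mother's and the fetus's genotype cannot be told apart. The labels do not say whether samples came from separate litters, and p-values measure the spread between these samples only.

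Caveolins are membrane-inserted proteins that form the body of a caveola, and cavins are the coat proteins that assemble on them from the cytosolic side. Caveolae are abundant in endothelium, fat and muscle, and muscle fibers carry their own members, *Cav3* and *Cavin4*, beside the widely expressed ones. In developing muscle, caveola-like membranes are thought to contribute to the T-tubules, which are curved by *Bin1* and carry the action potential into the fiber. When the sarcolemma tears, *Trim72* gathers vesicles at the wound together with caveolar and annexin proteins.

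The libraries held 82054811 to 102233181 counts. In WT the host gene *Synpo2* had 12943, 10812 and 14672 counts, against 18054, 20957 and 22270 in KO samples. No row of the count table was assigned to *SYISL* here, so the deletion itself was not checked. All 8 muscle fiber markers were detected in every sample. The libraries also differed in other tissue. The summed level of 8 keratinocyte markers ran from 15857 to 23723 CPM (counts relative to library size, scaled with TMM factors) in WT and from 688 to 796 CPM in KO, and the 8 adipocyte markers summed to 106 to 140.4 CPM in WT and 366 to 430.5 CPM in KO. In bulk tissue, more cells of a type and more RNA per cell cannot be told apart. The part of these tissue differences in the results that follow was not tested.

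All 9 genes were higher in KO than in WT. Counts were scaled with TMM factors and tested by the quasi-likelihood method of edgeR, and p-values were adjusted by Benjamini and Hochberg over the 22071 genes tested. In what follows, "rose" means an adjusted p-value under 0.05, and "called" means that the fold change was also over 1.5. Each of the 9 genes rose, against 21.9% of all genes tested, and 4 of them were called higher, against 8.31% of all genes tested. These 4 were *Cavin4*, *Cav3*, *Trim72* and *Cav2*. None of the 9 fell, against 23.1% of all genes, and 0 were called lower, against 8.39%. In either direction, 45% of all genes passed the adjusted p-value and 16.7% were called. The 9 were chosen with earlier results of these data known, so these shares are a description. The median log2 fold change of the 9 was 0.58, where the median of all genes tested was -0.004. In none of the 9 did the WT and KO values overlap, a pattern that 55.9% of all genes tested shared. The call was close to the threshold for several genes. *Cav2* at 0.59 lay just past the limit and *Bin1* at 0.58 just short of it, with nearly equal intervals.

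**Figure D1:**
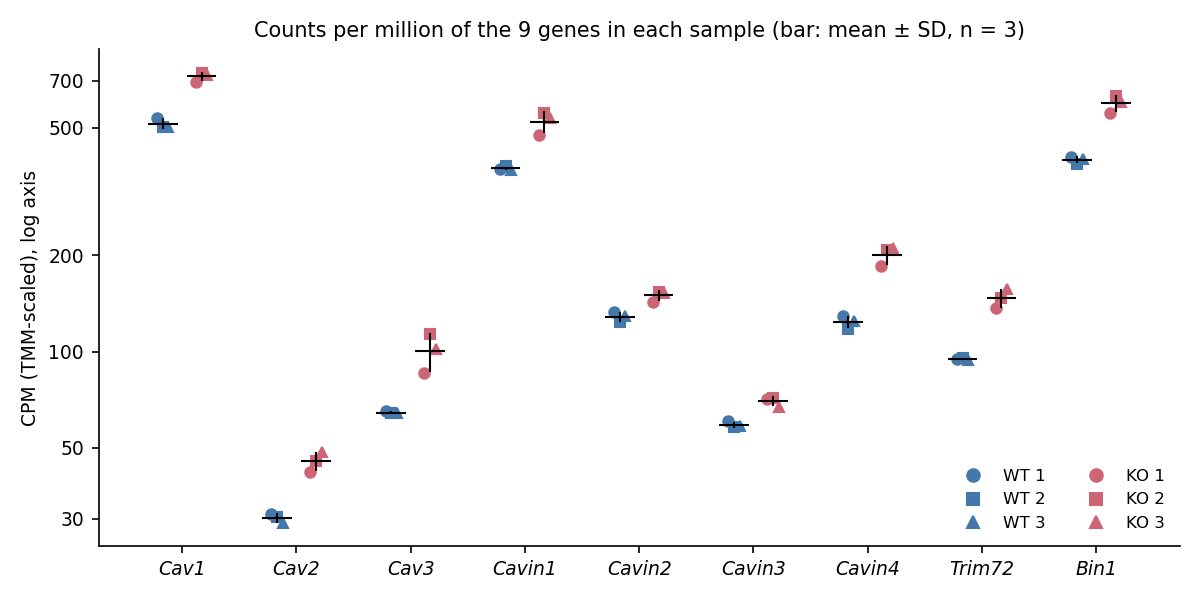
TMM-scaled CPM on a log axis for each of the 9 genes, with 1 point per sample and the mean ± SD of the 3 WT and 3 KO samples as bars. Every KO point lies above every WT point of the same gene. KO replicate 1 is the lowest KO point for 8 of the 9, and the share of all genes lowest there was not counted.

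The DNA just before the start sites is shown first, because the muscle members and the widely expressed members can be set side by side there. RefSeq promoter entries of GRCm38.p6 matched 7 of the 9 genes, and the 250 bases before the RefSeq start were searched on both strands. For *Trim72* and *Cavin1* this window lies inside the GENCODE gene span given here, downstream of the first GENCODE start, so it is not upstream of every transcript. The E-box, CANNTG, is the motif that myogenic basic helix-loop-helix factors recognize. 4 promoters are printed 5′ to 3′ with E-boxes in capitals, those of 2 muscle members and, for contrast, of *Cav1* and of *Cavin2*, which changed least.
Cav3, chr6:112459255-112459504, plus strand: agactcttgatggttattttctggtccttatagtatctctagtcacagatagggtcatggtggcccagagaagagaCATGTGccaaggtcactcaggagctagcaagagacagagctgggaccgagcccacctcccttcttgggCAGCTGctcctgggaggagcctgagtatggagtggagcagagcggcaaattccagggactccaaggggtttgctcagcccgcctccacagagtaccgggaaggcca
Cavin4, chr4:48663264-48663513, plus strand: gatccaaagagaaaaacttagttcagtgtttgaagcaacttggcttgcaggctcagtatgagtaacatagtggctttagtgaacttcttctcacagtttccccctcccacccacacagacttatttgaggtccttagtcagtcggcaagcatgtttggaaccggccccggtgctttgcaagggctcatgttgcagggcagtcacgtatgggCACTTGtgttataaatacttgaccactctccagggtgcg
Cav1, chr6:17306085-17306334, plus strand: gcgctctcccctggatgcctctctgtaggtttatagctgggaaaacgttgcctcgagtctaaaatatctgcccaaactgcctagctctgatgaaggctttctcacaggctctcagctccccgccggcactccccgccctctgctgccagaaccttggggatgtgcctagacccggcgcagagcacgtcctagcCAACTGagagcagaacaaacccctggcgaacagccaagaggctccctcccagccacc
Cavin2, chr1:51288876-51289125, plus strand: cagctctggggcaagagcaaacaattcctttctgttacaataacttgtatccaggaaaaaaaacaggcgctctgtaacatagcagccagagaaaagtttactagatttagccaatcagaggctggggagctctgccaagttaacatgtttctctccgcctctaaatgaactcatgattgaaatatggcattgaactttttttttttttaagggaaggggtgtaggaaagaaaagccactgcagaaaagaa

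An E-box stood in 5 of the 7 windows, and 66.2% of all 32851 RefSeq promoter windows of this length hold at least 1. *Cav3* had 2, *Cavin4* had 1, *Trim72* had 3, *Cav1* had 1 and *Cav2* had 2, while *Cavin1* and *Cavin2* had 0 in this window. The MEF2 and CArG motifs, bound by muscle transcription factors, matched 0 of the 7 windows and 2.92% and 1.47% of all windows. *Cav1* and *Cavin4* held TATAAA on either strand, as did 12.4% of all windows. The GC content was 56.0% for *Cav3* and 48.8% for both *Cavin4* and *Trim72*. It was 59.6% for *Cav1*, 62.0% for *Cav2*, 67.6% for *Cavin1* and 40.4% for *Cavin2*, the lowest of the 7. The median over all windows was 52.4%. A match of letters is a description and does not show that a factor binds.

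*Cav3*, the muscle caveolin, whose mutation causes muscle disease, had 65.2, 64.1 and 64.2 CPM in the WT samples and 85.6, 114 and 101.8 CPM in the KO samples. The WT values were nearly equal, with a coefficient of variation of 0.935%, and the KO values were spread by 14.1% around their mean. The mean went from 64.5 ± 0.603 to 100.4 ± 14.2 CPM (SD, n = 3 each), and the log2 fold change was 0.64 with a standard error of 0.086 (edgeR adjusted p = 2.57e-04). KO replicate 2 was the highest, and without it the log2 fold change was 0.54, under the 1.5-fold threshold. *Cav3* (ENSMUSG00000062694.7) lies on the plus strand of chromosome 6 from 112459505 to 112472872 of mm10.

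*Cav1*, the caveolin of most other cells, had 538, 501 and 503 CPM in WT and 696, 742 and 732 CPM in KO. Its log2 fold change was 0.49 with a 95% interval of 0.37 to 0.61 (edgeR adjusted p = 5.90e-05), so it rose without being called. *Cav2*, which needs a partner caveolin to reach the membrane, had 31.2, 30.4 and 29.1 CPM in WT and 42.1, 45.6 and 48.4 CPM in KO. Its log2 fold change was 0.59 with an interval of 0.46 to 0.71 (edgeR adjusted p = 2.62e-05). It was called higher, and lost the call in 6 of the 15 alternative fits, at 0.52 to 0.58. The genes are neighbours on chromosome 6, with *Cav2* (ENSMUSG00000000058.6) from 17281185 to 17289115 and *Cav1* (ENSMUSG00000007655.16) from 17306335 to 17341452, both on the plus strand and 17219 bases apart. Their intervals overlapped, and the difference between the neighbours' changes was not tested.

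The cavins spanned both the largest and the smallest changes of the 9 genes. *Cavin4*, the cavin found mainly in heart and skeletal muscle, had 129, 118 and 125 CPM in WT and 185, 207 and 210.0 CPM in KO. Its log2 fold change of 0.70, with an interval of 0.57 to 0.83 (edgeR adjusted p = 1.04e-05), was the largest of the 9. *Cavin1*, without which caveolae do not form, had 371, 379 and 370.2 CPM in WT and 474, 555 and 538 CPM in KO. Its log2 fold change was 0.48 with an interval of 0.34 to 0.62 (edgeR adjusted p = 1.97e-04). It rose and was not called. *Cavin4* (ENSMUSG00000028348.7) lies on the plus strand of chromosome 4 from 48663514 to 48673502, and *Cavin1* (ENSMUSG00000004044.9) on the minus strand of chromosome 11 from 100956733 to 100970887.

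*Cavin2*, which curves the caveolar membrane, had 133, 124 and 129 CPM in WT and 143, 154 and 153 CPM in KO. *Cavin3*, which joins the coat by binding *Cavin1*, had 60.5, 58.2 and 58.5 CPM in WT and 71.2, 71.7 and 67.3 CPM in KO. These were the smallest rises, 0.22 for *Cavin2* (interval 0.12 to 0.32, edgeR adjusted p = 0.00304) and 0.25 for *Cavin3* (interval 0.16 to 0.34, edgeR adjusted p = 8.11e-04) on the log2 scale. *Cavin2* (ENSMUSG00000045954.7) lies on the plus strand of chromosome 1 from 51289126 to 51302960. Both upper bounds lay under the lower bounds of *Cavin4*, *Trim72*, *Cav2*, *Cav3*, *Bin1* and *Cav1*.

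**Figure D2:**
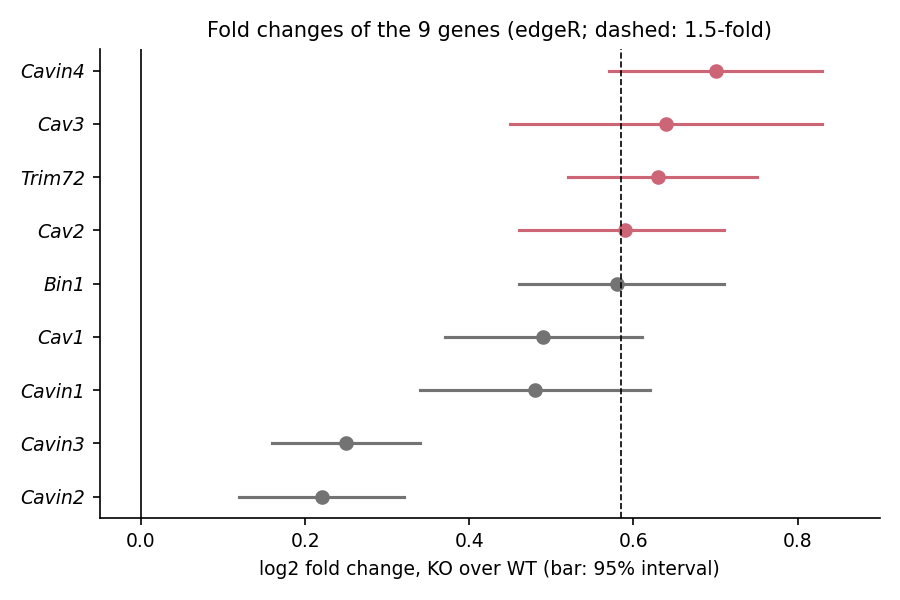
Log2 fold changes of KO over WT for the 9 genes as points with 95% intervals from edgeR, where red marks genes called higher and the dashed line marks a 1.5-fold change. *Cavin2* at 0.22 and *Cavin3* at 0.25 sit apart from the others, which run from 0.48 to 0.70.

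*Trim72*, a muscle ubiquitin ligase that starts the repair patch, had 94.6, 95.7 and 94.0 CPM in WT and 137, 147 and 157 CPM in KO. The WT mean was 94.8 ± 0.857 CPM (SD, n = 3) and the KO mean 147 CPM with a coefficient of variation of 6.82%. The log2 fold change was 0.63 with a standard error of 0.051 (edgeR adjusted p = 8.89e-06). *Trim72* (ENSMUSG00000042828.12) lies on the plus strand of chromosome 7 from 128003949 to 128011033. An antisense gene, *Gm15533*, overlaps 27.6% of its exon bases and had 30 to 48 counts, where *Trim72* had 7906 to 15227. *Cavin3* (ENSMUSG00000037060.3), on the minus strand of the same chromosome from 105480083 to 105482300, is overlapped by *Gm45667* over 22.5% of its exon bases, and that gene had 2 to 7 counts. The strand setting of the counting is not stated, so reads of such pairs cannot be told apart.

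*Bin1*, the membrane-curving protein of the T-tubule, had 405, 386 and 401 CPM in WT and 558, 629 and 600.4 CPM in KO. Its mean went from 398 ± 9.90 to 596 ± 35.8 CPM (SD, n = 3 each, edgeR adjusted p = 2.84e-05), and the interval of its log2 fold change was 0.46 to 0.71. It was not called, and it was called in 7 of the 15 alternative fits, among them RLE factors (0.59), upper-quartile factors (0.65) and DESeq2 (0.59). *Bin1* (ENSMUSG00000024381.16) lies on the plus strand of chromosome 18 from 32377230 to 32435737. *Bin1* makes muscle and non-muscle splice forms, and counts per gene cannot separate them. An overlapping noncoding gene on the opposite strand, *A830052D11Rik*, covered 6.22% of its exon bases and had 94 to 200 counts.

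Levels of different genes were compared as CPM per kilobase of exon in GENCODE M21. In WT, *Cav1* was the most abundant at 149 ± 5.91, followed by *Cavin1* at 104 ± 1.25 and *Bin1* at 96.6 ± 2.40 (SD, n = 3 each). *Cavin4* at 60.3 ± 2.69 and *Cav3* at 55.7 ± 0.521 formed the middle, above *Trim72* at 42.4 ± 0.384, *Cavin2* at 42.0 ± 1.48 and *Cavin3* at 35.5 ± 0.770. *Cav2* stood last at 9.06 ± 0.309. The WT values of neighbours in this order overlapped for *Trim72* and *Cavin2* and for no other pair. In KO the order was kept, with *Cav1* at 210.1 ± 7.01 and *Cav2* at 13.6 ± 0.947, while the values of *Cavin1* and *Bin1* overlapped, and so did those of *Cavin4* and *Cav3*. *Trim72* at 65.7 ± 4.48 no longer overlapped *Cavin2* at 49.0 ± 1.94.

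**Figure D3:**
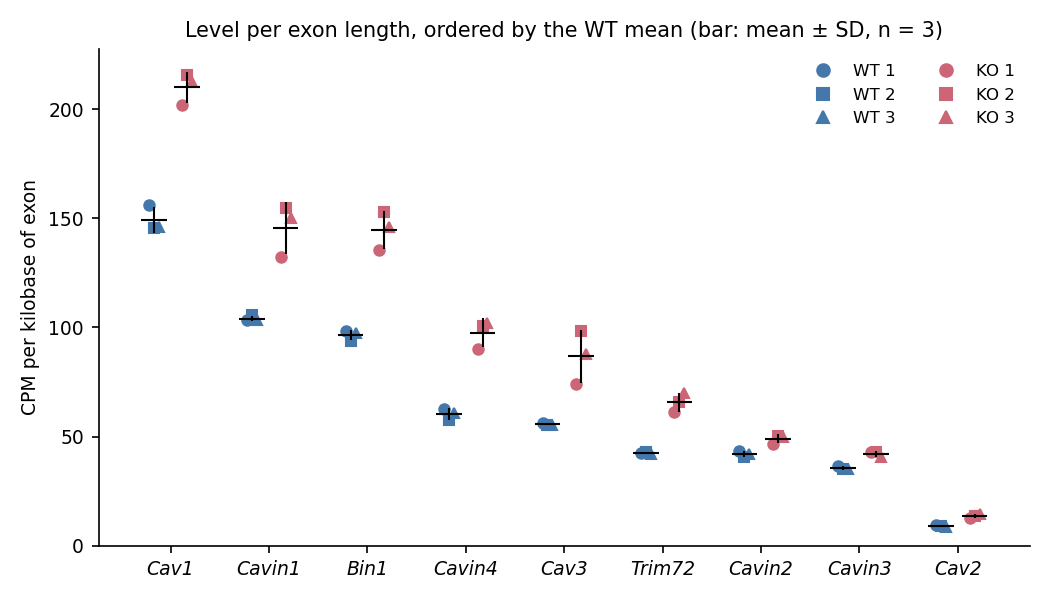
CPM per kilobase of exon for the 9 genes, ordered by the WT mean, with 1 point per sample and bars for the mean ± SD of 3 samples. The order from *Cav1* down to *Cav2* is the same in both genotypes, and the KO points lie higher throughout.

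Within the caveolins, the WT and KO values of the per-length share overlapped for every member. *Cav3* made up 25.4%, 26.4% and 26.4% of the caveolin total in WT and 25.6%, 30.03% and 27.9% in KO. *Cav1* made up 69.7% ± 0.584 in WT and 67.8% ± 2.12 in KO. The ratio of *Cav3* to *Cav1* counts within a sample, which does not depend on scaling between libraries, was 0.121, 0.128 and 0.128 in the WT samples, against 0.123, 0.153 and 0.139 in KO. The log2 ratio was 0.14 higher in KO (exact two-sided permutation test, p = 0.3, adjusted over the 3 ratios compared 0.45). Without KO replicate 2 the difference was 0.06. A shift from *Cav1* to *Cav3* was not resolved with these samples.

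Within the cavins, the groups did not overlap for 3 of the 4 shares. Of all genes tested, 55.9% had CPM values without overlap, and no such figure was worked out for shares. Shares in a family sum to a fixed total, so a gain in a share comes with a loss elsewhere. The levels of *Cavin2* and *Cavin3* themselves rose, by 0.22 and 0.25 on the log2 scale. *Cavin4* made up 24.9% ± 0.740 of the cavin total in WT and 29.2% ± 0.554 in KO (SD, n = 3 each). *Cavin2* went from 17.4% ± 0.347 to 14.7% ± 0.303 and *Cavin3* from 14.7% ± 0.107 to 12.6% ± 0.993, while *Cavin1* overlapped at 43.0% ± 1.12 and 43.5% ± 0.997. The ratio of *Cavin4* to *Cavin1* counts was 0.347, 0.311 and 0.337 in the WT samples, against 0.390, 0.373 and 0.390 in KO. The log2 ratio was 0.21 higher in KO and did not pass a threshold of 0.05, which 3 samples against 3 cannot reach (exact two-sided permutation test, p = 0.1, adjusted over the 3 ratios compared 0.3). Both genes were picked with earlier results of these data known, so the separation of the groups is a description. *Trim72* and *Cav3*, both muscle genes, had a ratio of 1.45, 1.49 and 1.46 in WT and 1.60, 1.29 and 1.54 in KO, and the groups overlapped (exact two-sided permutation test, p = 1.0).

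**Figure D4:**
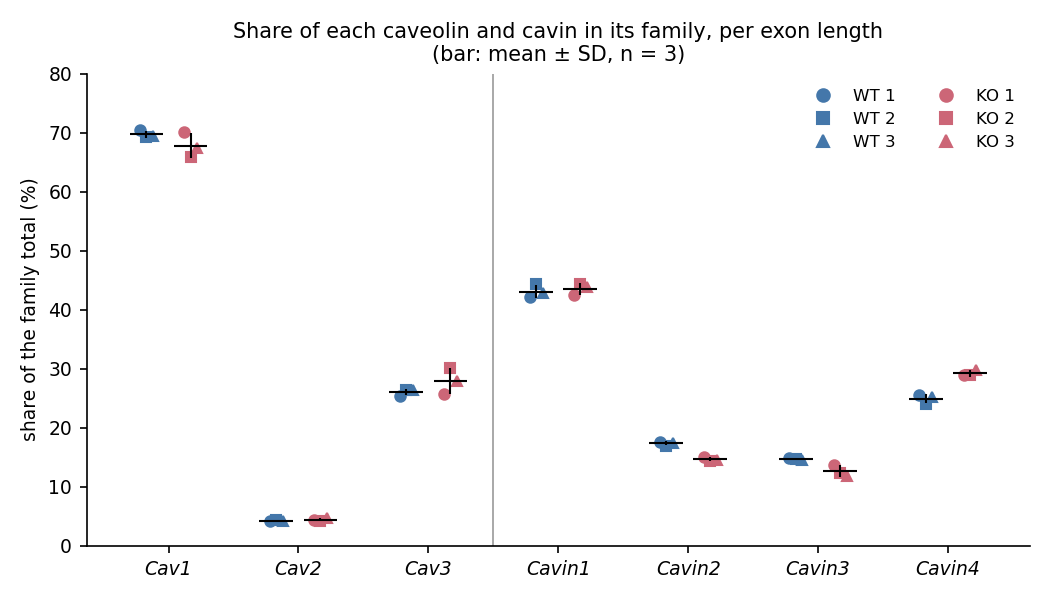
Share of each gene in the per-length total of the 3 caveolins (left of the line) and of the 4 cavins (right), in percent, with 1 point per sample and bars for the mean ± SD. The share of *Cavin4* is higher and those of *Cavin2* and *Cavin3* are lower in KO without overlap, while the caveolin shares overlap.

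The genes whose centred log2 CPM profile over the 6 samples lay closest to that of *Cav3*, among 12370 other genes with a mean of at least 5 CPM, were *Mdh1*, *Got2* and *Uqcrfs1*. Their root mean square differences from *Cav3* were 0.023, 0.035 and 0.036 on the log2 scale. They encode a malate dehydrogenase, an aspartate aminotransferase of mitochondria and a subunit of respiratory complex III. The closest member was *Bin1* at 0.075. For *Cav1* the closest genes were *Chpt1*, *Flot1* and *Ndufb9* at 0.014, 0.023 and 0.024, and the closest member was again *Bin1*, at 0.055. *Flot1* encodes flotillin, a scaffold of other membrane domains, and is counted in the caveola-associated list below. All points share the same 6 libraries and genotype difference, so closeness here is a description.

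Of 18 genes listed as caveola-associated, 13 rose and 1 fell, with 6 called higher and 0 lower. Their median log2 fold change was 0.42. Over all genes tested, 21.9% rose and 23.1% fell, with 8.31% called higher and 8.39% called lower. *Pacsin3*, the muscle form of a membrane-curving protein at the caveolar neck, went from 84.2 ± 3.63 to 146 ± 13.4 CPM (SD, n = 3 each), which is 0.79 on the log2 scale (edgeR adjusted p = 1.13e-05). *Popdc3* (1.13) and *Bves* (0.83), neighbouring genes for Popeye-domain membrane proteins that bind cyclic AMP, were also called. So were *Pfkm* (0.90), the muscle phosphofructokinase, *Ehd3* (0.73), a membrane-remodelling ATPase, and *Nos1* (0.71), the neuronal nitric oxide synthase found at the sarcolemma. *Ehd2*, the ATPase that anchors caveolae at the surface, rose by 0.27 and was not called, with 342, 359.7 and 359 CPM in WT and 424, 419 and 434 CPM in KO. The gene that fell was *Src* (-0.32), a tyrosine kinase that phosphorylates *Cav1*, and it is named after its value was seen.

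Of 15 T-tubule and triad genes, 9 rose and 2 fell, with 6 called higher and 0 lower and a median log2 fold change of 0.52. Among all genes tested, 21.9% rose, 23.1% fell, 8.31% were called higher and 8.39% were called lower. *Tcap*, which encodes telethonin of the Z-disc, had 19.7, 17.9 and 19.8 CPM in WT and 56.9, 74.8 and 67.9 CPM in KO. The log2 fold change was 1.80 (edgeR adjusted p = 5.00e-07). *Jph1* (1.07) and *Jph2* (0.68), which tether the sarcoplasmic reticulum to the tubule, were called, as were *Cacna1s* (1.05), the voltage sensor of the tubule, and *Ank1* (0.73), an ankyrin gene. *Dnm2*, the dynamin that cuts membrane necks, had 104, 121 and 113 CPM in WT and 114, 107 and 112 CPM in KO. The log2 fold change was -0.02 with an interval of -0.14 to 0.10. *Mtm1*, the phosphatase myotubularin, averaged 4.76 ± 0.118 CPM in WT samples and 5.39 ± 0.709 CPM in KO samples, a log2 fold change of 0.18 with an interval of -0.05 to 0.40. The groups overlapped for both genes, and neither passed the adjusted p-value (edgeR, 0.801 for *Dnm2* and 0.178 for *Mtm1*). The genes that fell were *Amph* (-0.31) and *Wasl* (-0.12), named after their values were seen.

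Of 21 genes of membrane repair beside *Trim72*, 8 rose and 9 fell, with 1 called higher and 1 lower, and the median log2 fold change was 0.03. The shares of all genes tested were 21.9% that rose, 23.1% that fell, 8.31% called higher and 8.39% called lower. *Dysf*, the vesicle fusion protein dysferlin that *Trim72* and *Cav3* bind, had 67.4, 70.1 and 72.5 CPM in WT and 86.2, 89.7 and 90.5 CPM in KO. It rose by 0.34 (interval 0.25 to 0.43, edgeR adjusted p = 1.12e-04) and was not called. *Capn3*, the muscle calpain, was called higher at 0.62, from 10.3 ± 0.432 to 15.8 ± 0.342 CPM (SD, n = 3 each). *Smpd1*, the acid sphingomyelinase that acts on the outer membrane leaflet at wounds, was called lower, with 93.4, 127 and 105 CPM in WT and 44.3, 45.7 and 44.5 CPM in KO. Its log2 fold change was -1.27 with a standard error of 0.093 (edgeR adjusted p = 4.89e-06). WT replicate 2 had the highest value and WT replicate 1 the lowest of the WT samples. The summed keratinocyte markers had the same order, with 15857, 23723 and 17718 CPM in the WT samples. This comparison of orders was not planned, and the part of keratinocyte RNA in the *Smpd1* level was not tested.

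**Figure D5:**
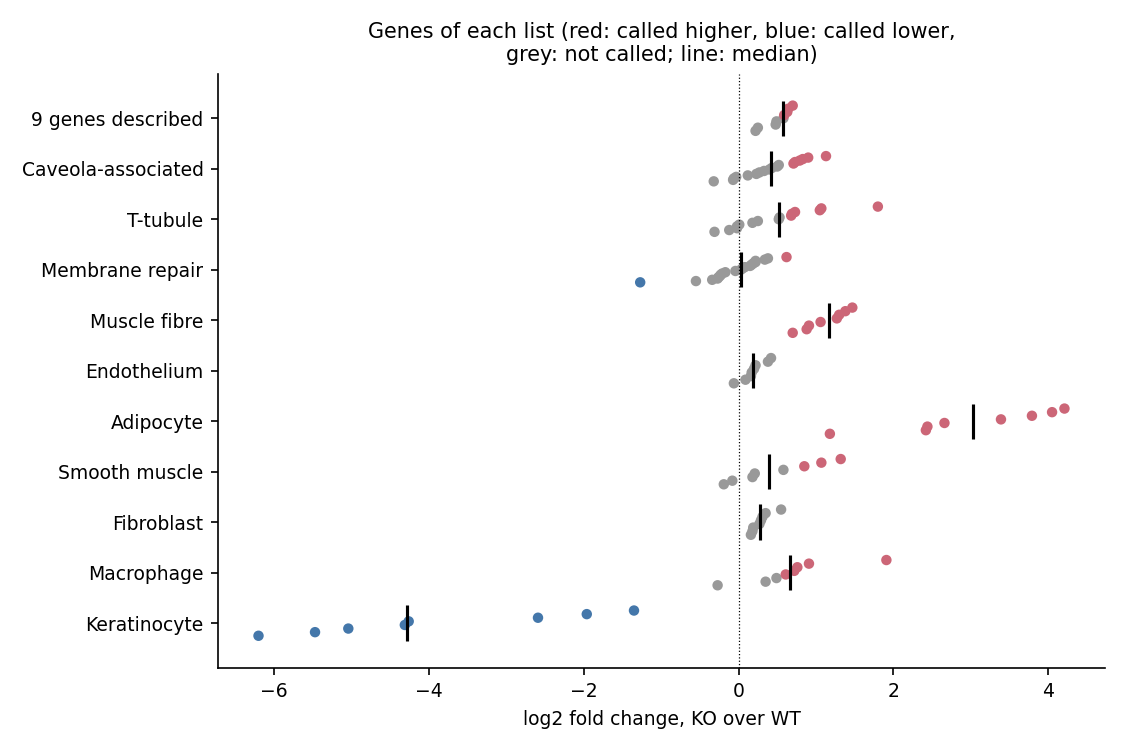
Log2 fold changes of KO over WT for the 9 genes described, the 3 pathway lists and the 7 cell type marker lists, with 1 point per gene, red or blue where called and a line at the median. The 9 genes have a median of 0.58. The adipocyte (3.02), muscle fiber (1.17) and macrophage (0.67) marker medians lie above it. The smooth muscle (0.39), fibroblast (0.28), endothelial (0.19) and keratinocyte (-4.29) marker medians lie below it.

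Markers of the cells that carry caveolae also differed. For the counts below, 21.9% of all genes tested rose, 23.1% fell, 8.31% were called higher and 8.39% were called lower. All 8 muscle fiber markers, such as *Acta1* and *Ckm*, were called higher, with a median log2 fold change of 1.17. They summed to 13408 to 14455 CPM in WT and 28364 to 35945 CPM in KO. Each of the 9 genes had a smaller log2 fold change than this median. KO replicate 1 had the lowest muscle fiber sum of the KO samples, at 28364 CPM. The endothelial, adipocyte, smooth muscle and keratinocyte sums were also lowest there among the KO samples. The fibroblast and macrophage sums were highest there. Of the 9 genes, 8 were lowest in KO replicate 1 among the KO samples, and *Cavin3* was lowest in KO replicate 3. The share of all genes lowest in KO replicate 1 was not counted. Of the 8 endothelial markers, 6 rose and 0 were called, with sums of 711 to 742 CPM in WT and 817 to 859 CPM in KO. The 8 adipocyte markers were all called higher with a median of 3.02. Of the 8 smooth muscle markers, 5 rose, 1 fell and 3 were called higher (sums of 702 to 711 CPM in WT and 733 to 774 CPM in KO). Of the 8 fibroblast markers, 7 rose, 0 fell and 0 were called (30467 to 33408 CPM in WT and 37112 to 38322 CPM in KO). Of the 8 macrophage markers, 7 rose, 1 fell and 5 were called higher (267 to 284 CPM in WT and 414 to 451 CPM in KO). The 8 keratinocyte markers were all called lower. No marker of any list was at 0 in all samples. The part of any of these cell types in the rise of the 9 genes was not tested.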

How the data were processed

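RNA-seq counts of 3 WT and 3 KO leg muscle samples were analysed. According to the methods and the submitters' processing notes, the authors trimmed 150 bp paired-end reads with Trim Galore 0.6.6, mapped them to mm10 with HISAT2 2.2.1 and counted them per gene with featureCounts 2.0.1. The values deposited by the authors are raw counts without normalization. Annotation and strand setting are not given in the sources used here. Of 56262 gene IDs, 55227 were found in GENCODE M21, which is on the same assembly and gave symbols, positions and exon lengths.

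Counts were analysed in R 4.3.3 with edgeR 4.0.16 (filterByExpr, TMM, quasi-likelihood F-test on genotype, Benjamini-Hochberg over 22071 genes). The tests were also run on simulated counts with far fewer changed genes than passed the adjusted p here, so that run does not cover differences this widespread. Standard errors were taken as the log2 fold change over the root of F. Same-genotype samples differed by more than counting noise (chi-square averaging 5.28 to 36.4 over genes in each pair, about 1 from counting alone), so none was merged. Alternatives were other scalings and filters, DESeq2 1.42.0, limma-voom (limma 3.58.1), other thresholds, a replicate block and leaving out each sample. Ratios within samples were compared with exact permutation tests over the 6 samples. The members and lists were chosen with earlier results of these data known. All 9 members were named. Of each pathway list, up to 6 called genes with the lowest adjusted p were named, plus *Dysf*, *Ehd2*, *Pacsin3*, *Dnm2* and *Mtm1*. A T-tubule gene that this rule names is not reported here.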

Additional observations from a re-analysis of the deposited data

How the results depend on the processing

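All 9 members stayed higher in KO with an adjusted p under 0.05 in every alternative fit, and the side of the 1.5-fold threshold changed for *Cav2*, *Cav3*, *Trim72* and *Bin1*. The number of the 9 called, all higher, was 1 with library size as the only scaling (*Cavin4*), 9 with no fold-change threshold and 0 at a fold change over 2. Leaving out 1 sample gave 2 to 5, with 2 without KO replicate 2. With library size only, *Cav2* was at 0.52, *Cav3* at 0.57 and *Trim72* at 0.56. Without a fold-change threshold the caveola-associated list had 14 genes (13 higher, 1 lower), the T-tubule list 11 (2 lower) and the membrane repair list 17 (8 higher, 9 lower). At a fold change over 2 these were 1, 3 and 1, the last lower and 0 higher. With library size only, membrane repair had 0 higher and 2 lower. These counts follow from the thresholds and scalings themselves. The median of all genes moved to 0.06 with upper-quartile factors and -0.07 with library size. Per-sample files gave the same values as the series table. Leaving out 1 sample in turn gave a *Cav3* to *Cav1* difference of 0.06 to 0.22, *Cavin4* to *Cavin1* 0.17 to 0.25 and *Trim72* to *Cav3* -0.06 to 0.09, where leaving out samples for the last 2 was chosen after seeing the data. Replicate numbers share no stated litter, and the deviations of same-numbered samples correlated at -0.20, -0.13 and 0.05 across genes. The replicate block called 4 of the 9 genes, 6 caveola-associated, 6 T-tubule and 2 membrane repair genes, as without it. It lowered the genes past the adjusted p over the whole table from 9936 to 8860.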
